A study of Homo sapiens with 8 samples.

Results

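Laminins, the trimeric glycoproteins of basement membranes, and integrins, the heterodimeric receptors through which cells hold on to them, were followed in HAP1 cells with and without BCDIN3D. The genes were taken by symbol: every laminin α, β or γ chain gene (LAMA, LAMB or LAMC with a number) and every integrin α or β subunit gene (ITGA or ITGB with a number or letter) listed in the RNA-seq files. The rule found 38 of 57996 symbols, 12 laminin and 26 integrin genes. The line HAP1, near-haploid and human, derives from a chronic myelogenous leukaemia and grows attached to the dish. BCDIN3D is a methyltransferase that acts on the 5′ end of histidine tRNA. Wild-type HAP1 cells (2 RNA-seq libraries) were compared with BCDIN3D knockout cells of clone 11 (2 libraries), all grown for 48 h in IMDM with 10% serum. RNA had an integrity number of 10. The labels file the genotype under a tag for shRNA status, while its value and the design text call the cells a knockout. The knockout group was a single clone, so effects of the lost gene and differences between clones cannot be told apart. Replicates carry 1 of 2 dates and are called biological in the design text, but nothing says that they were separate thaws. The p-values therefore measure only how far these libraries spread, which may be technical.

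A laminin is built from 1 α, 1 β and 1 γ chain, which coil together through their long arms and are secreted as a trimer. The α chain carries the globular domains that bind cell-surface receptors. The γ1 chain is the commonest γ partner, and α5 is the α chain of many adult epithelial and vascular basement membranes. The α2 chain is that of muscle and nerve sheath, α4 that of vessel walls and other mesenchymal tissue, and α3 that of the anchoring laminin of skin. Integrins α3β1, α6β1, α7β1 and α6β4 bind laminins, α1β1, α2β1, α10β1 and α11β1 bind collagens, and α5β1, αIIbβ3 and the αV integrins bind the RGD tripeptide of fibronectin, vitronectin and similar proteins.

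To set called and uncalled laminin chains side by side, the RefSeq promoter windows (GRCh38.p14, 250 bases before to 50 after an annotated start) of 7 chains are shown. Capitals mark CG dinucleotides, 5′ to 3′ on the gene's strand. The first 3 genes were lower in the knockout libraries, LAMB1 was lower and LAMB2 higher by less, and LAMA5 and LAMC1 missed the threshold.
LAMA2: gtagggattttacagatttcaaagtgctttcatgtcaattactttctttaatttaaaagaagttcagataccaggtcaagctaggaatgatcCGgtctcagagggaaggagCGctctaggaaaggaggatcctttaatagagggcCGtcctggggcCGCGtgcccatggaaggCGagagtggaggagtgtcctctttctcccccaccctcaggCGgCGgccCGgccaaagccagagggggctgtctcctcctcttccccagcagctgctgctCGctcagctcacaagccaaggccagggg
LAMA3: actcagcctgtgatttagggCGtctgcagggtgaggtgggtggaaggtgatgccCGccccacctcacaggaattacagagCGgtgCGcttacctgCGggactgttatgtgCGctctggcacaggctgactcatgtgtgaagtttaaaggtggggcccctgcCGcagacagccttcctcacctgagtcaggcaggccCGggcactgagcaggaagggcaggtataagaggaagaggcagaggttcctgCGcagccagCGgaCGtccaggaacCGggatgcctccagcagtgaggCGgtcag
LAMA4: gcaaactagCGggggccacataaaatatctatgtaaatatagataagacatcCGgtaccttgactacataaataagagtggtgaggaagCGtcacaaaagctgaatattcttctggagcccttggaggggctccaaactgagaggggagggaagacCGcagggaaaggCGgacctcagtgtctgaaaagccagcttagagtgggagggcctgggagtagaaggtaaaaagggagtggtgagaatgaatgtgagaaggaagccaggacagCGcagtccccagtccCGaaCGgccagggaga
LAMB1: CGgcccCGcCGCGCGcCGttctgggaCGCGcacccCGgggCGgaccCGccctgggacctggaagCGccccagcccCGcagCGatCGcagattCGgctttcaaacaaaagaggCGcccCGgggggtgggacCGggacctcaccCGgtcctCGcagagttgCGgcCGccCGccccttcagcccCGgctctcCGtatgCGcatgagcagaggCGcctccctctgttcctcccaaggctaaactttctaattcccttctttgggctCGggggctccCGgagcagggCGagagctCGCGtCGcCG
LAMB2: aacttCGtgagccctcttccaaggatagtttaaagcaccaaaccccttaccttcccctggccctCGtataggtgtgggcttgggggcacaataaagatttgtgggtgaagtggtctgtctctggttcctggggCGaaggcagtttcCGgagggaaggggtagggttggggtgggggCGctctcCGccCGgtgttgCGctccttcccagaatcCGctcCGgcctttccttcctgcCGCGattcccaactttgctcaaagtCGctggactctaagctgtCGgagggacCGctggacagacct
LAMA5: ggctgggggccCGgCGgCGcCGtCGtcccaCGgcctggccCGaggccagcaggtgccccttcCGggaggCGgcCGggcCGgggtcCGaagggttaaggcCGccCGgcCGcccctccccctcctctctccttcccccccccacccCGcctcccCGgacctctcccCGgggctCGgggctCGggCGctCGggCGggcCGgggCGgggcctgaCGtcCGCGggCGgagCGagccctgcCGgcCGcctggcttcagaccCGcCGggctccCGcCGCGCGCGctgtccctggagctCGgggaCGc
LAMC1: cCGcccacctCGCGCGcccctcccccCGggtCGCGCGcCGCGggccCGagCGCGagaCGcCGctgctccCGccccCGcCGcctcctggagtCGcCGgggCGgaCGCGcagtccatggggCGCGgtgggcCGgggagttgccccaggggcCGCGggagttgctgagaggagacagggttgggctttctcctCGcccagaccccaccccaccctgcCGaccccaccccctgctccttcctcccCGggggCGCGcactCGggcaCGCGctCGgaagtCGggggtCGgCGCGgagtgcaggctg

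The windows lie at chr6:128882888-128883187 (LAMA2, plus strand), chr18:23872770-23873069 (LAMA3, plus), chr6:112254518-112254817 (LAMA4, minus), chr7:108003112-108003411 (LAMB1, minus), chr3:49133001-49133300 (LAMB2, minus), chr20:62367263-62367562 (LAMA5, minus) and chr1:183023170-183023469 (LAMC1, plus). The windows of the α chain genes that fell held 10 CG dinucleotides in LAMA2, 13 in LAMA3 and 8 in LAMA4, near the middle of all windows of that length (median 14 over 34943 windows). Of all windows 43.7%, 48.4% and 39.4% held fewer, respectively. LAMA5 and LAMC1 held 41 each, more than 93.3% of all windows, LAMB1 held 35 and LAMB2 held 15. Among the integrins the windows of ITGA2B and ITGA10 held 2 each and both genes missed the threshold, while the ITGA1 window held 19 and ITGA1 fell. The LAMA3 window starts 184 kb inside the gene, at an internal annotated start, and a count for the whole gene cannot tell its starts apart. It held the AP-1 motif TGANTCA, searched on both strands, at 2 places, 125 and 69 bases before the start by their first base (TGACTCA and TGAGTCA), and the motif CACCTG once, overlapping the second AP-1 match. TGANTCA stood in 7.72% and CACCTG in 20.6% of all windows. The GC box GGGCGG, in 44.9% of windows, was found, on either strand, in LAMA5 (5 matches), LAMB1 (4), LAMC1 (3), LAMA3 (1) and LAMB2 (1). These are matches of letters, not measured sites. RefSeq windows were matched for 26 of the 38 genes, and LAMC3 was not among them.

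RNA-seq libraries held 20065041 to 24415272 counts. The targeted gene BCDIN3D stood at 7.40 and 4.90 CPM (counts scaled to an equal library size) in wild-type and 1.56 and 2.71 CPM in knockout, so its transcript was lower but still counted. Over all 16233 genes tested, 6.56% differed at an adjusted p under 0.05 (3.06% higher and 3.50% lower in knockout). Of 10 blood cell markers 0 reached the count needed for a test, and TYROBP was at 0 in every library. Their summed level was 0.625 and 1.34 CPM in wild-type and 0.284 and 0.251 CPM in knockout.

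Laminin chain genes fell more often than they rose. Of 12 genes 8 were tested, and of these 5 were lower and 1 higher in knockout, against 3.50% and 3.06% of all genes tested. The median log2 fold change of the 8 was -0.85, beside 0.00 over all genes. Of 26 integrin genes 17 were tested, and 0 were higher and 1 lower, with a median of 0.04. Wild-type and knockout values did not overlap for 7351 of all 16233 genes tested. The same held for 6 of the 8 laminin genes and 7 of the 17 integrin genes. With 2 libraries against 2, separate groups are thus common and alone mark no change. With the date as a term in the model (9.55% of all genes called) 1 integrin was higher, and with DESeq2 (3.61% called) the same 7 laminin and integrin genes were called as in the reported fit. Of the 25 tested genes 24 would have passed the low-count filter (0.475 CPM) on either group alone, among them each of the 7 that were called. The exception, ITGA10, passed through its knockout libraries. The test was edgeR's quasi-likelihood F test, errors of fold changes are standard errors, and the 7 calls held under each of 10 alternatives. In bulk RNA, fewer cells with a transcript and less transcript per cell cannot be told apart.

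**Figure D1:**
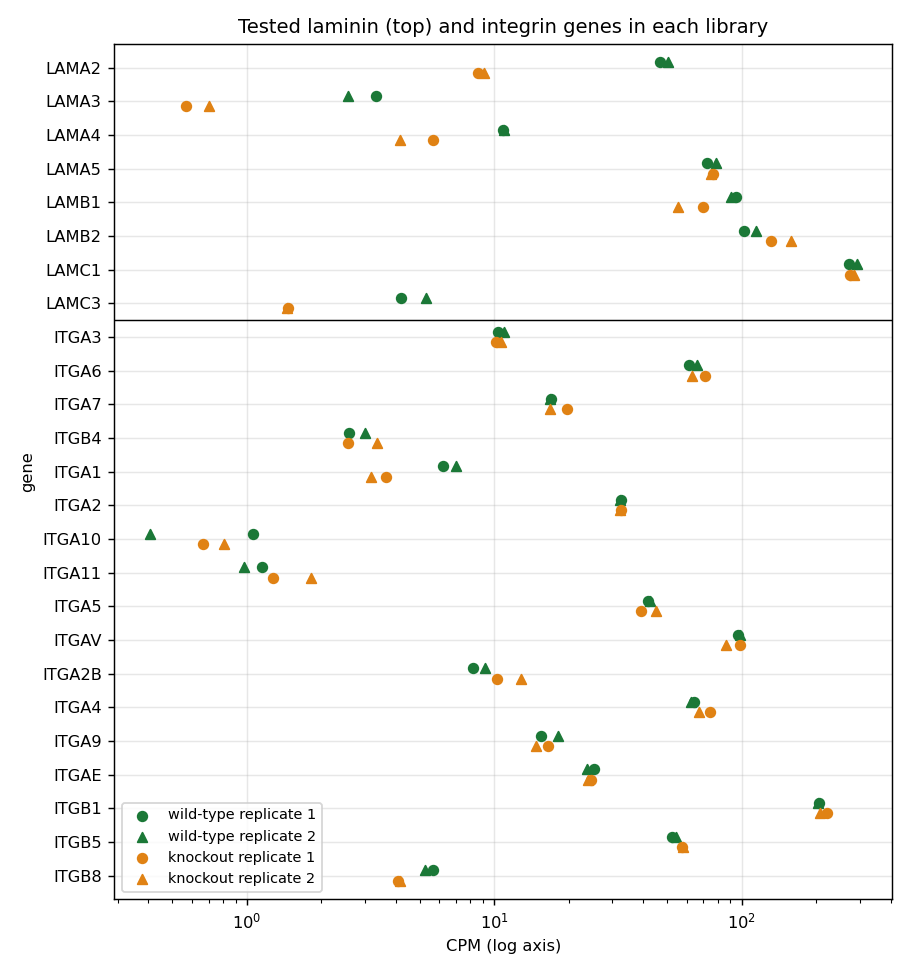
CPM (log axis) of the 25 tested genes in each of the 4 libraries, laminin genes above the line and integrin genes below it; circles are replicate 1 and triangles replicate 2. The knockout libraries of LAMA2, LAMA3, LAMA4, LAMC3, LAMB1 and ITGA1 lie to the left of their wild-type libraries and those of LAMB2 to the right. Distances between genes also reflect gene length.

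The largest change was in LAMA2, whose α2 chain forms the laminin of muscle and nerve. LAMA2 (chromosome 6, 128883138 to 129516566) stood at 46.5 and 50.2 CPM in wild-type and at 8.56 and 9.05 CPM in knockout. The groups lay far apart and the replicates close together. The fall was 5.50-fold, a log2 fold change of -2.46 ± 0.11 (adjusted p = 1.05e-23), with -2.44 at the first date and -2.47 at the second. The transcript remained well counted in knockout, with 181 and 180 reads.

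LAMA3, the α3 chain gene of epithelial laminins, was far less counted but fell by a similar factor. LAMA3 (chromosome 18, 23689453 to 23955066) had 69 and 63 reads in wild-type and 12 and 14 in knockout, or 3.32 and 2.55 CPM against 0.568 and 0.704 CPM. The lowest wild-type value was above the highest knockout value. Its log2 fold change was -2.19 ± 0.34 (adjusted p = 3.19e-06). In the same libraries 6 of 10 epithelial markers were tested, and 0 were higher and 4 lower. Of those tested 66.7% were called, against 6.56% of all genes. KRT8 was at -1.08 ± 0.14 and EPCAM at -2.29 ± 0.59. With DESeq2 only 1 marker, KRT8, stayed lower. EPCAM lost its call with DESeq2 (adjusted p = 0.187) and with any library left out. Of the 6 tested markers 1 had a positive log2 fold change, and their median was -0.99. The summed level of the list was 84.8 and 77.6 CPM in wild-type and 63.5 and 54.1 CPM in knockout. CDH1 had at most 1 read in a library and GRHL2 was at 0. The part of these markers in the LAMA3 result was not tested.

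LAMA4, the α4 chain gene of mesenchymal and vascular laminins, was about halved. It lies on chromosome 6, at 112107931 to 112254985, and stood at 10.8 and 10.9 CPM in wild-type and 5.68 and 4.17 CPM in knockout. The knockout libraries differed more between them than the wild-type libraries did, yet both lay below. The log2 fold change was -1.14 ± 0.17 (adjusted p = 1.45e-06), 2.20-fold lower.

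LAMA5, the α5 chain gene, missed the threshold, with a narrow interval. Its values were 72.3 and 78.7 CPM in wild-type and 76.4 and 75.2 CPM in knockout, with overlapping groups. The log2 fold change of 0.01 ± 0.07 had a 95% interval of -0.14 to 0.15, which leaves out the falls of the other 3 tested α chains.

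The tested β chains moved in opposite directions. LAMB1 (chromosome 7, 107923799 to 108003161), whose β1 chain joins most embryonic laminins, stood at 94.97 and 90.84 CPM in wild-type and 69.9 and 55.0 CPM in knockout. LAMB2 (chromosome 3, 49121114 to 49133050), the β2 chain gene of synaptic and kidney basement membranes, stood at 101.9 and 113.8 CPM in wild-type and 131.0 and 157.6 CPM in knockout. Neither pair of groups overlapped, and for each gene the second knockout library lay further from wild-type than the first. The log2 fold changes were -0.57 ± 0.08 (adjusted p = 6.06e-06) for LAMB1 and 0.42 ± 0.08 (adjusted p = 0.000219) for LAMB2. Without the second knockout library they were -0.41 and 0.28, without the first -0.75 and 0.55.

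Of the tested γ chain genes LAMC3 fell and LAMC1 missed the threshold. LAMC1, the γ1 chain gene, stood at 270.4 and 292.4 CPM in wild-type and 274.0 and 285.0 CPM in knockout, with a log2 fold change of -0.01 ± 0.06 (95% interval -0.13 to 0.11). LAMC3, whose γ3 chain is found in brain, retina and testis, had 87 and 131 reads in wild-type and 31 and 29 in knockout, or 4.18 and 5.31 CPM against 1.47 and 1.46 CPM. Its groups did not overlap, and the log2 fold change was -1.70 ± 0.25 (adjusted p = 1.61e-06). LAMC3 lies on chromosome 9, at 131009174 to 131094473.

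**Figure D2:**
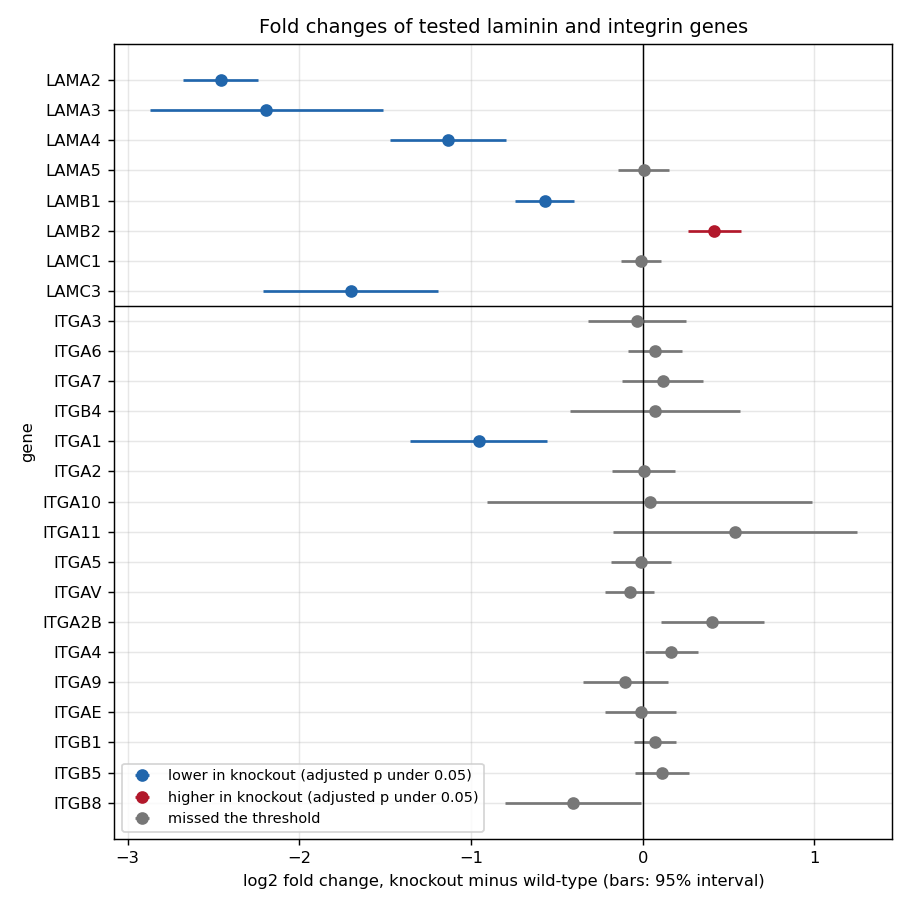
Log2 fold changes, knockout minus wild-type, of the 25 tested genes with 95% intervals; blue and red mark genes lower and higher at an adjusted p under 0.05, grey those that missed the threshold. Of the laminin genes 6 are coloured, with LAMA2 at -2.46 furthest left, and of the integrin genes only ITGA1 is.

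Laminin genes left untested had few reads. LAMB3, the β3 chain gene of epithelial laminins, had 2 reads in each wild-type library and 2 and 9 in the knockout libraries. LAMA1, the α1 chain gene of the earliest embryonic laminin, had 0 and 1 reads in wild-type and 0 and 4 in knockout, and LAMB4 had 0 and 1 against 1 and 2. At these counts no difference was detectable: 3 reads, the limit that a count of 0 allows, came to 0.121 to 0.151 CPM (counting error only). LAMB4 lies beside LAMB1 (start 108011662), so a barely counted chain gene stood next to a well counted one.

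Ratios between chains within a library show the shift without any scaling of libraries. Their size also reflects gene length, for which no file gave transcript lengths, so only changes between groups are read. The ratio of LAMB2 to LAMB1 was 1.07 and 1.25 in wild-type against 1.88 and 2.87 in knockout, a rise of 0.9996 on the log2 scale. LAMA2 to LAMA5 went from 0.643 and 0.639 to 0.112 and 0.1203. LAMC3 to LAMC1 went from 0.0155 and 0.0181 to 0.00535 and 0.00512. In these pairs, and in LAMA4 to LAMA5 (log2 change -1.16) and ITGA1 to ITGA2 (-0.96), the groups did not overlap. For the receptor pair ITGA6 to ITGB1 they did, with 0.300 and 0.326 in wild-type against 0.321 and 0.306 in knockout. ITGAV to ITGB5 moved little, from 1.85 and 1.82 to 1.71 and 1.51 (log2 change -0.19). Its groups did not overlap either, though neither gene was called. With 2 libraries against 2 the two-sided exact permutation test cannot go below p = 0.333, which 6 of the 7 pairs gave (adjusted p = 0.389), so the ratios are a description. The pairs were chosen after the values were seen.

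**Figure D3:**
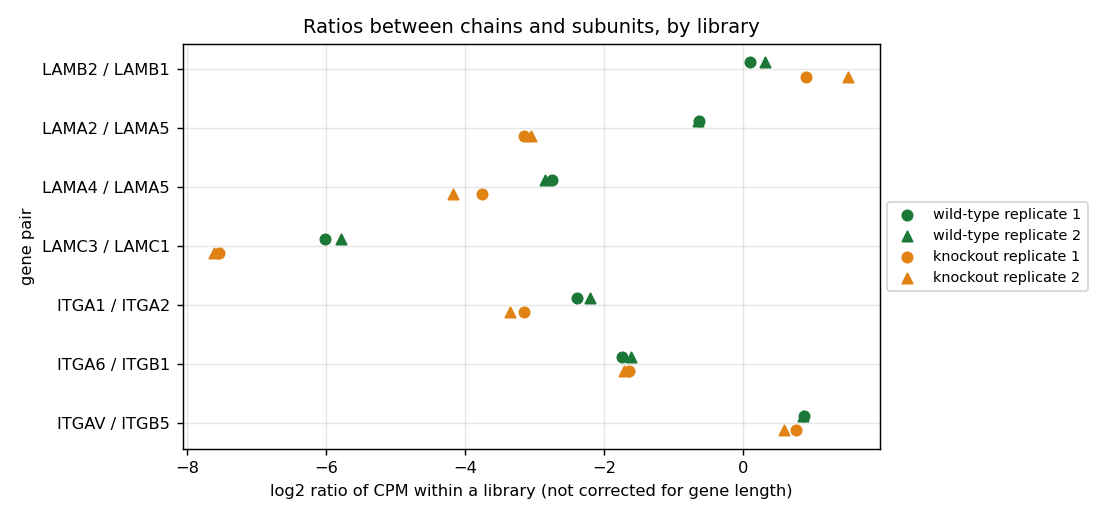
Log2 ratio of CPM between 2 genes within each library (not corrected for gene length) for 7 pairs; green is wild-type and orange knockout. LAMB2 to LAMB1 lies further right in both knockout libraries, and the LAMA2, LAMA4, LAMC3 and ITGA1 ratios lie further left. ITGAV to ITGB5 lies a little further left in both, and ITGA6 to ITGB1 overlaps.

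Of the 4 genes classed here as laminin-binding integrin subunits (ITGA3, ITGA6, ITGA7 and ITGB4) 0 were called. Shared β subunits and collagen receptor subunits were classed apart, whether or not they also take part in laminin binding. The number is too small to set against the 6.56% called among all genes. ITGA6, the α6 gene, stood at 61.3 and 66.1 CPM in wild-type and 71.1 and 63.0 CPM in knockout, with a log2 fold change of 0.07 ± 0.08. ITGA3, the α3 gene of an epithelial laminin receptor, stood at 10.4 and 10.9 CPM against 10.2 and 10.7 CPM (-0.03 ± 0.14). ITGA7, the α7 gene of muscle, stood at 17.0 and 16.7 CPM against 19.7 and 16.8 CPM (0.12 ± 0.12). Groups overlapped for all 3. ITGB4, the β4 gene of hemidesmosomes, had 54 and 74 reads against 54 and 67, and its log2 fold change of 0.07 ± 0.25 had a wide interval (-0.42 to 0.57). ITGB1, the β subunit shared by most of these receptors, stood at 204.2 and 202.8 CPM in wild-type and 221.3 and 206.2 CPM in knockout (0.07 ± 0.06, 95% interval -0.05 to 0.19).

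The called integrin was one of the subunits classed here as collagen-binding, a class that does not exclude other ligands. ITGA1, the α1 gene (chromosome 5, 52787916 to 52959209), had 129 and 173 reads in wild-type and 77 and 63 in knockout, or 6.20 and 7.01 CPM against 3.64 and 3.17 CPM. The groups were separate, and the log2 fold change was -0.96 ± 0.20 (adjusted p = 0.000556), 1.94-fold lower. Its adjusted p was largest, 0.0193, without wild-type replicate 2. PELO, a ribosome rescue gene that lies within ITGA1 and shares its annotated start, was at -0.11 ± 0.09 and missed the threshold. How reads over both genes were assigned is not given in the sources used here.

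ITGA2, the α2 gene next along the chromosome (start 52989352), held at 32.4 and 32.1 CPM in wild-type and 32.5 and 32.2 CPM in knockout. The log2 fold change was 0.00 ± 0.09, with an interval of -0.18 to 0.19 that leaves out the fall of ITGA1. ITGA10 and ITGA11, collagen receptor genes of cartilage and fibroblasts, were too thinly counted to be precise. ITGA10 had 22 and 10 reads against 14 and 16 (0.04 ± 0.47), and ITGA11 had 24 and 24 against 27 and 36 (0.54 ± 0.35).

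Of the tested subunits of fibronectin and vitronectin receptors 0 were called, and ITGA8, ITGB3 and ITGB6 had too few reads for the test. ITGAV, the αV gene, stood at 96.9 and 98.1 CPM in wild-type and 98.2 and 86.7 CPM in knockout (-0.08 ± 0.07). ITGA5, the α5 gene of the fibronectin receptor, stood at 41.8 and 42.6 against 39.2 and 44.9 CPM (-0.01 ± 0.09). Both overlapped between groups. ITGB5, a β partner of αV, stood at 52.4 and 54.0 against 57.5 and 57.6 CPM. Its groups were separate but its log2 fold change of 0.11 ± 0.08 missed the threshold (adjusted p = 0.538). The gene ITGB8, another partner of αV, stood at 5.67 and 5.27 against 4.07 and 4.17 CPM, also without overlap (-0.41 ± 0.20, adjusted p = 0.277).

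ITGA2B, the αIIb gene of the platelet fibrinogen receptor, stood at 8.22 and 9.15 CPM in wild-type and 10.3 and 12.8 CPM in knockout. Both knockout libraries were above both wild-type libraries. The log2 fold change of 0.40 ± 0.15 gave an adjusted p of 0.106 and was not called; it was called when the date entered the model (adjusted p = 0.0444) or without knockout replicate 1 (adjusted p = 0.0288). Its platelet partner ITGB3 had 6 and 4 reads in wild-type against 0 and 1 in knockout, a ratio of 9.02 with an exact 95% interval of 1.28 to 391 that covers counting error only. It was below the filter, and the fit without the filter gave an adjusted p of 0.503. ITGA8, an RGD receptor gene of kidney and smooth muscle, had 0 reads in every library.

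ITGA4 and ITGA9, whose products bind fibronectin and vascular adhesion molecules, missed the threshold. ITGA4 stood at 63.9 and 62.4 CPM in wild-type and 74.4 and 67.2 CPM in knockout, without overlap (0.17 ± 0.08, adjusted p = 0.25). ITGA9 stood at 15.4 and 18.0 against 16.51 and 14.73 CPM, with overlap (-0.10 ± 0.12).

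ITGA4 and ITGA9, given above, were classed apart from the leukocyte integrins. Most subunits in the leukocyte class were scarce in these cells from a leukaemia. Of 7 such subunits 1 was tested, ITGAE, an intraepithelial lymphocyte subunit gene, at 25.3 and 23.7 CPM in wild-type and 24.6 and 23.9 CPM in knockout (-0.01 ± 0.10). Its annotated span overlaps P2RX5, which was lower in knockout (-0.70, adjusted p = 0.000382), and GSG2, which was not called. The other 6 had 1 to 29 reads over the 4 libraries. ITGB2, the shared β2 subunit gene of white cells, had 12 and 8 reads in wild-type and 5 and 4 in knockout, and ITGB7 had 4 and 2 against 1 and 2. ITGAL had 6 reads in wild-type and 5 in knockout, ITGAM 3 and 1, ITGAX 1 and 2 and ITGAD 1 and 0. ITGB6, an epithelial partner of αV, had 0 and 1.

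Partners of laminin in the basement membrane moved both ways. Of 17 genes 13 were tested, and 4 were higher and 2 lower, or 46.2% called against 6.56% of all genes, with a median of 0.13. NTN4, a netrin that binds the laminin γ1 chain, rose by 1.30 ± 0.21 on the log2 scale and COL4A6, a type IV collagen chain gene, by 0.69 ± 0.07. COL4A5, its neighbour and chain partner, was at 0.48 ± 0.07 and the heparan sulfate proteoglycan gene AGRN at 0.30 ± 0.07, both called higher (AGRN lost its call without wild-type replicate 1 or knockout replicate 2). NPNT, which encodes a ligand of α8β1, fell by 1.92 ± 0.23 and FRAS1, a basement membrane protein gene of embryonic epithelia, by 1.04 ± 0.12. The nidogens that bridge laminin to collagen IV missed the threshold, NID1 at 0.13 ± 0.07 and NID2 at 0.07 ± 0.10.

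Of 8 laminin receptor genes other than integrins 2 were higher and 0 lower, or 25% called against 6.56% of all genes: BCAM, a receptor for α5 laminins, at 0.33 ± 0.10 (adjusted p = 0.0307) and the syndecan gene SDC2 at 0.25 ± 0.07 (adjusted p = 0.00871). Both calls were lost with DESeq2 (adjusted p = 0.222 and 0.0514). BCAM also lost its call with library size alone, without wild-type replicate 1 and without knockout replicate 2. SDC2 lost its call without wild-type replicate 2. DAG1, the dystroglycan gene whose product binds α2 laminins, was at 0.15 ± 0.07 (adjusted p = 0.253).

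Ligands of integrins other than laminins included 27 genes, of which 17 were tested, 6 were higher and 2 lower (47.1% called against 6.56% of all genes, median 0.22). The matrix glycoprotein gene THBS1 was at 0.90 ± 0.17 and the fibrillin gene FBN1 at 0.47 ± 0.08. LTBP1, which tethers latent TGF-β, was at -1.61 ± 0.42 and POSTN, the periostin gene, at -1.37 ± 0.36, but neither was called by DESeq2 (adjusted p = 0.202 and 0.171), under which 2 ligands were higher and 0 lower. Fibronectin itself, FN1, was at 0.01 ± 0.08.

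Of 45 genes that link integrins to actin and signalling, 40 were tested, 4 were higher and 0 lower, or 10% called against 6.56% of all genes, with a median of 0.09. TLN2, a talin gene, was at 0.34 ± 0.08 and FLNA, the filamin A gene, at 0.28 ± 0.05. A model that includes the date called 7 higher (9.55% of all genes called in either direction), and DESeq2 called 2 higher (3.61%). TLN2 lost its call without knockout replicate 2 and FLNA without wild-type replicate 2. Of 8 tetraspanins and other membrane partners of integrins 1 was higher, or 12.5% called against 6.56% of all genes. It was TSPAN4 (0.28 ± 0.09, adjusted p = 0.0421), and 0 were called with DESeq2 (adjusted p = 0.22). TSPAN4 also lost its call with library size alone or no filter. The same held without wild-type replicate 1, wild-type replicate 2 or knockout replicate 1. Of 10 fibroblast and mesenchymal markers 4 were tested and 1 was higher, or 25% called against 6.56% of all genes. It was VIM (0.28 ± 0.06), a call lost without wild-type replicate 2. Of the 4 tested, 2 had positive and 2 negative log2 fold changes. VIM alone stood at 272.4 and 261.9 CPM in wild-type and 336 and 311.3 CPM in knockout, most of the list's summed level. DCN and LUM were at 0, and the summed level of that list was 398.3 and 378.2 CPM in wild-type and 458.1 and 433.9 CPM in knockout; its part in the laminin results was not tested.

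**Figure D4:**
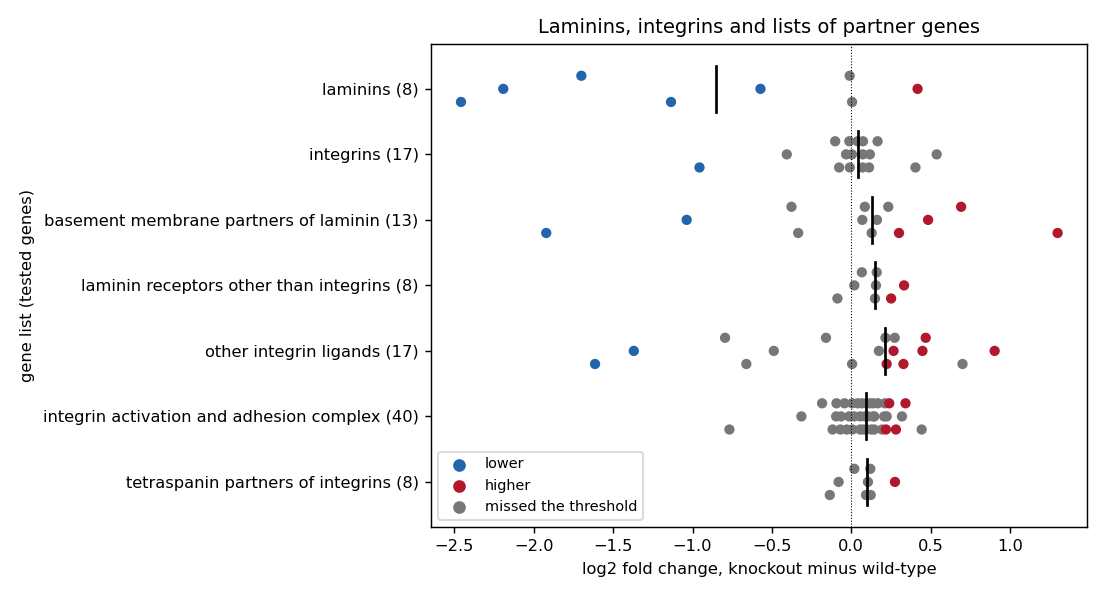
Log2 fold changes, knockout minus wild-type, of tested genes in 7 lists (number tested in brackets); each point is a gene, blue lower, red higher and grey missing the threshold, and black bars are medians. The laminin median lies at -0.85, while those of the other 6 lists drawn lie between 0.04 and 0.22. Marker lists are not drawn: the epithelial median was -0.99 and the fibroblast and mesenchymal median -0.06.

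The called genes lie on 6 chromosomes. Neighbours were taken by order of start position, whatever their distance. Of the 3 tested genes before and the 3 after each called gene, 42 places in all, 2 were higher, 4 lower and 36 not called. The uncalled PELO and BMPR1APS1 fill such places although they lie within ITGA1 and LAMA2. Over all genes tested 3.06% were higher and 3.50% lower, with 8176 positive and 8057 negative log2 fold changes. Before ITGA1 (start 52787916) the homeobox gene ISL1, which ends at 51394730, was lower (-0.98 ± 0.20). Around LAMA4 all 6 neighbours had negative log2 fold changes, from -0.68 to -0.05, with MARCKS (-0.68 ± 0.07) and FYN (-0.50 ± 0.10) called. Before LAMA2 (start 128883138) SOGA3, which ends at 127519335, was lower (-0.88 ± 0.17), with the uncalled PTPRK between them. After LAMA2, ARHGAP18 was higher (0.31 ± 0.08, a call lost without wild-type replicate 2). Near LAMB1 PNPLA8 was higher (0.35 ± 0.07, lost without wild-type replicate 1). Around LAMB2 all 6 neighbours had positive log2 fold changes, from 0.02 to 0.36, and 0 were called by edgeR. Of the neighbours of LAMA3 and LAMC3 0 were called either. Of the tested genes 87.3% had a RefSeq position.

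**Figure D5:**
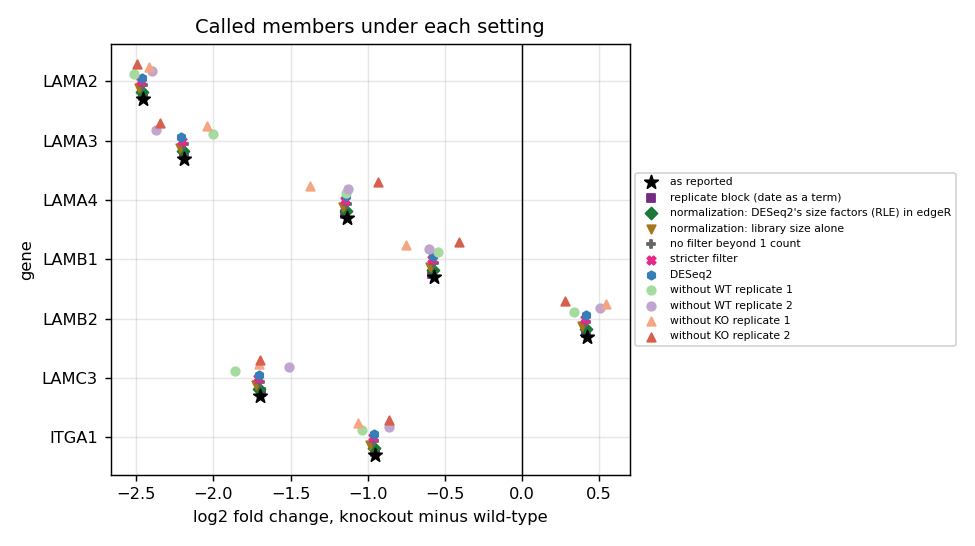
Log2 fold changes of the 7 called genes as reported (stars) and under 10 alternatives, among them 4 fits that each leave out 1 library. Each gene stays on its side of 0; LAMB1 ranges from -0.75 to -0.41 and LAMB2 from 0.28 to 0.55.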

How the data were processed

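Per the labels' protocols, stranded total RNA libraries (TruSeq) were made from HAP1 RNA. The authors deposited raw read counts per gene symbol, 1 file per library, without normalisation. The submitters' processing notes name STAR, featureCounts, Subread, cutadapt, SAMtools and FastQC and the build hg38. Their versions, the annotation and the strand setting were not stated there or in the labels, so reads of overlapping genes may be split or shared. The small RNA libraries were not used, and the values of 1 untested gene are not reported here.

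These counts went into edgeR 4.0.16 (R 4.3.3): filterByExpr (minimum count 10), TMM scaling, robust quasi-likelihood F test of knockout (n = 2) against wild-type (n = 2), Benjamini-Hochberg adjustment over all 16233 genes, threshold 0.05. Each standard error is the size of the log2 fold change over √F. For CPM, library sizes were TMM-scaled. The script was tested on simulated data. Alternatives were the date as a block, DESeq2 size factors, library size alone, no filter, a minimum count of 30, DESeq2 1.42.0, and leaving out each library in turn. The labels give both groups the same 2 dates, which pairs them; deviations of same-date libraries had a correlation of 0.08 over genes. Replicates differed by more than sampling noise (chi-square per degree of freedom 3.95 and 4.80), so none was a duplicate.

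Genes and lists were chosen with earlier results of these data known. The rule named every laminin and integrin gene, BCDIN3D, and of each other list up to 2 called genes each way by size of change. The neighbours of called genes followed a rule of position. AGRN, COL4A5, NID1, NID2, DAG1, FN1, CDH1, GRHL2, TYROBP, DCN, LUM, PELO, P2RX5 and GSG2 were added after their values were seen. TNS2 was matched through its older symbol.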

Additional observations from a re-analysis of the deposited data

How the results depend on the processing

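The 7 called laminin and integrin genes kept their direction and their call under each of the 10 alternatives; 5 laminin genes were lower and 1 higher in each. The largest adjusted p among them was 0.0193 (ITGA1, without wild-type replicate 2). With the date as a replicate block 1 integrin, ITGA2B, was higher (log2 fold change 0.41), as also without knockout replicate 1 (0.56). The block raised the genes called higher from 497 to 767 and the adhesion complex genes from 4 to 7, and changed no other call among the laminin and integrin genes. DESeq2 called 255 genes higher and 331 lower. It left 0 receptors, 2 other ligands higher and 0 lower, 2 adhesion complex genes, 0 tetraspanins and 1 epithelial marker. Library size alone left 1 receptor and 0 tetraspanins and moved all calls to 374 higher and 644 lower. No filter left 0 tetraspanins, and the stricter filter left 1 other ligand lower. The number of genes higher was 240 without wild-type replicate 1, 320 without wild-type replicate 2 and 301 without knockout replicate 2, and 340 were lower without wild-type replicate 2. Leaving out 1 library gave 240 to 684 genes higher and 340 to 705 lower, 0 to 1 integrins higher, 2 to 4 basement membrane partners lower (4 without knockout replicate 2) and 1 to 3 receptors higher. It gave 2 to 6 other ligands higher and 0 to 2 lower, and 1 to 6 adhesion complex genes higher. Of tetraspanins 0 to 1 and of mesenchymal markers 0 to 1 were higher, and 1 to 3 epithelial markers were lower. The cause of these changes was not tested. A fit that leaves out 1 library assumes that the lone library varies like the other group. Depth limits LAMA3, ITGA10, ITGA11, ITGB4 and the 13 untested genes.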
